A study of Macaca mulatta with 12 samples.

Results

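The kidney of the rhesus macaque (Macaca mulatta) was represented by 2 of the 12 small RNA sequencing profiles, called kidney 1 and kidney 2 after their labels, and was set against the 10 profiles of 7 other tissues. The members were chosen by label alone, with no measured value. All animals were wild-type, 36 months old and untreated, and the study's methods give 2 animals in all. Large intestine, small intestine and muscle had 2 profiles each, while 1 profile each, and so no replicate, came from liver, lung, occipital lobe and spinal cord. Each profile was sequenced from the total RNA of a tissue sample, so fewer cells of a type and less RNA per cell cannot be told apart. The labels do not say which profiles came from the same animal, and p-values measure only the spread between these profiles.

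MicroRNAs (miRNAs) are short RNAs that are cut from hairpin precursors, the pre-miRNAs, and that guide Argonaute proteins to messenger RNAs. Pairing runs mainly through the seed, bases 2 to 8 of the mature miRNA, so miRNAs with one seed share most of their targets. The arm of the hairpin a mature miRNA comes from is written as 5p or 3p. In kidney, miRNAs of the HOX clusters, of the miR-192/194 and miR-200 clusters and of the miR-204 and miR-30 families are the ones most often described, in tubular epithelium and in podocytes, the cells of the glomerular filter.

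The profiles held 22118095 to 25579064 valid reads, of which 68.4% in kidney 1 and 55.0% in kidney 2 were assigned to mature miRNAs of the study's list of macaque pre-miRNAs. The other profiles lay between 35.9% in liver and the value of kidney 1. Of 1219 mature sequences, 773 had a read in some profile, and 371 passed the abundance filter and were tested. Abundance is given as RPTM, reads per 10000000 valid reads, so that 1 read was worth 0.391 RPTM in kidney 1 and 0.413 RPTM in kidney 2. Kidney 1 and kidney 2 differed by a median of 0.304 on the log2 scale over the tested miRNAs, against 0.347 to 0.379 between the profiles of each of the 3 other tissues with 2. The Spearman correlation across miRNAs was 0.972 between the kidney profiles and 0.971 to 0.973 in those 3 tissues.

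The markers given for kidney were the pre-miRNAs mml-mir-10b, mml-mir-489 and mml-mir-599. Of their 6 mature miRNAs, 4 were tested and all 4 lay above every other profile in both kidney profiles, namely mml-miR-10b-5p, mml-miR-10b-3p, mml-miR-489-3p and mml-miR-599-5p. The other 2 were too rare to be tested: mml-miR-489-5p had no read in any profile, and mml-miR-599-3p stood at 18.4 and 2.89 RPTM in kidney against at most 0.436 RPTM elsewhere. These markers are no independent check of the labels. mml-miR-599-5p passed the abundance filter only through the kidney profiles, and members and lists were chosen with earlier results of these data known. Markers of liver, skeletal muscle and neural tissue were far lower in kidney than in those tissues, while those of several other cell types were not low. The liver marker mml-mir-122a summed to 2.74 and 2.48 RPTM in the kidney profiles and to 7739 RPTM in liver, and the markers of skeletal muscle summed to 192 and 143 RPTM in kidney, with 267259 and 303245 RPTM in muscle. The neural markers summed to 1084 and 984 RPTM in kidney against 496954 RPTM in occipital lobe. Among the skeletal muscle markers mml-miR-206-3p and mml-miR-499-3p were at 0 in both kidney profiles. Others had reads there. The largest value was that of mml-miR-133a-3p, at 87.6 and 64.5 RPTM, and identical values were found for mml-miR-133c-3p. A read that fitted both was counted for each, so the sums of the skeletal muscle markers hold such reads more than once. Fewer reads came from mml-miR-499-5p, at 10.2 and 7.44 RPTM, mml-miR-133b-3p, at 3.13 and 2.89 RPTM, and mml-miR-1-3p, at 1.56 and 0.413 RPTM. The smooth muscle markers were abundant everywhere, at 517578 and 322998 RPTM in kidney within a range of 103165 to 3570598 RPTM elsewhere. Erythroid markers summed to 50754 and 83832 RPTM in kidney, within 9408 to 822508 RPTM elsewhere. Markers of stroma summed to 6509 and 4151 RPTM, endothelial ones to 1268 and 940 and immune ones to 1350 and 1266, each within the range of the other profiles. Those of ciliated cells summed to 3.91 and 2.07 RPTM in kidney and to 1333 RPTM in lung.

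The sequences on which the kidney results turn are shown as the study's list of mature miRNAs gives them, 5′ to 3′, with the seed in capitals. The first 4 pairs are shown because each holds 1 seed in 2 nearly identical miRNAs whose levels in kidney differed.
mml-miR-10b-5p: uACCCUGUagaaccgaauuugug
mml-miR-10a-5p: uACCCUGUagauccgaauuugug
mml-miR-196a-5p: uAGGUAGUuucauguuguugg
mml-miR-196b-5p: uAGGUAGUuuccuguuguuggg
mml-miR-204-5p: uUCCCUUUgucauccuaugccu
mml-miR-211-5p: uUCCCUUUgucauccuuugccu
mml-miR-30a-5p: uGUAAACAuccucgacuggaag
mml-miR-30e-5p: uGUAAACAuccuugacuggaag
With positions counted from 1 at the 5′ end, each pair differed by 1 substitution outside the seed: A12U from mml-miR-10b-5p to mml-miR-10a-5p, A12C from mml-miR-196a-5p to mml-miR-196b-5p, A17U from mml-miR-204-5p to mml-miR-211-5p and C13U from mml-miR-30a-5p to mml-miR-30e-5p. The next 6 are shown because they were among those above every other profile in kidney and shared their seed with none of the sequences above.
mml-miR-489-3p: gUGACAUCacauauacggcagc
mml-miR-10b-3p: aGAUUCGAuucuaggggaaua
mml-miR-363-3p: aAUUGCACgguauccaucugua
mml-miR-190a-5p: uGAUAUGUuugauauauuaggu
mml-miR-660-5p: uACCCAUUgcauaucggaguug
mml-miR-532-5p: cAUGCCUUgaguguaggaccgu

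A single miRNA held most of the assigned miRNA reads of both kidney profiles. The share of assigned reads taken by mml-miR-10b-5p, which overlaps HOXD4 in the HOXD cluster, was 54.2% in kidney 1 and 51.3% in kidney 2. It was 29.6% and 23.3% in muscle, 9.005% and 12.8% in large intestine, 6.55% in spinal cord, 2.13% and 3.72% in small intestine, 0.746% in lung, 0.619% in liver and 0.159% in occipital lobe. Both kidney profiles were thus above all 10 others, with muscle next. The miRNAs that followed in kidney were mml-let-7f-5p at 7.21% and 9.76%, mml-miR-143-3p at 7.56% and 5.86%, mml-miR-10a-5p at 7.02% and 5.64%, mml-miR-192-5p at 3.71% and 5.04% and mml-miR-30a-5p at 4.96% and 4.31%. The 10 most abundant miRNAs made up 91.1% and 89.6% of the assigned kidney reads, and 9 miRNAs in kidney 1 and 11 in kidney 2 sufficed for 90% of them.

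**Figure D1:**
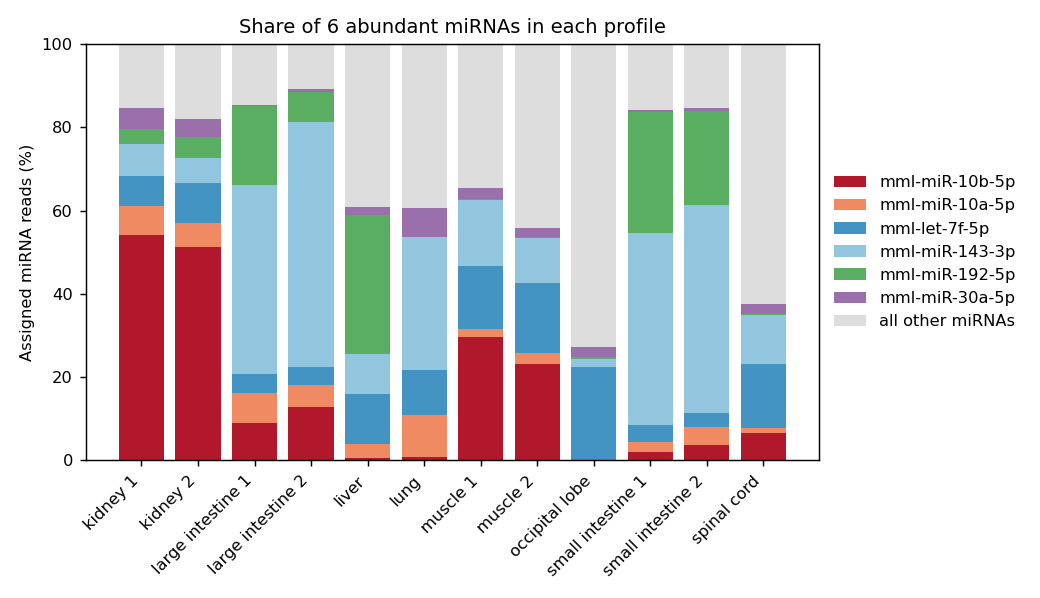
Stacked bars give the percentage of assigned miRNA reads (y axis) held by 6 miRNAs in each of the 12 profiles (x axis), with all other miRNAs in gray. mml-miR-10b-5p takes 54.2% and 51.3% of the kidney bars, and mml-miR-143-3p the largest colored part of the intestinal bars.

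Summed by seed, the miR-10 seed ACCCUGU took 61.2% and 56.9% of the assigned kidney reads. The let-7 seed GAGGUAG followed with 10.8% and 14.1%, the seed GAGAUGA of mml-miR-143-3p with 7.56% and 5.86%, the miR-30 seed GUAAACA with 5.48% and 4.78%, and the seed UGACCUA of mml-miR-192-5p with 3.72% and 5.05%. The most abundant miRNA of the other profiles was mml-miR-143-3p in both intestines and lung, mml-miR-192-5p in liver, mml-let-7f-5p in occipital lobe and mml-miR-181a-5p in spinal cord. Only muscle shared mml-miR-10b-5p with kidney in that place.

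None of 4 summaries computed per profile passed the test between kidney and the other profiles. The 66 arrangements of the profiles do not allow an exact p low enough for a single summary to pass alone after adjustment over 4, so these results decide little. The share of the most abundant miRNA was 52.7% on average in kidney against 35.9% ± 13.5 (SD, n = 10) elsewhere, and an exact two-sided permutation test over the 66 arrangements of the profiles gave p = 0.121 (Benjamini-Hochberg adjusted over 4 summaries, 0.242). Reads of 21 to 23 nt made up 80.5% and 78.1% of the valid reads in kidney and 57.3% to 80.4% elsewhere (exact permutation p = 0.121, adjusted 0.242). Reads with a 3′ tail of up to 2 nt that the precursor did not encode made up 20.5% and 33.2% of the miRNA reads in kidney and a mean of 28.9% elsewhere (exact permutation p = 0.727, adjusted 0.848). The mean log2 ratio of 5p to 3p reads over 83 pre-miRNAs with both arms was 0.144 and 0.288 in kidney and 0.234 elsewhere (exact permutation p = 0.848, adjusted 0.848).

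Across the 371 tested miRNAs, 62 were higher and 47 lower in kidney than the mean of the 7 other tissues, by edgeR's quasi-likelihood test with a Benjamini-Hochberg adjusted p under 0.05, which is 16.7% and 12.7% of those tested. An unadjusted p under 0.05 was reached by 148. Without kidney 1 the counts were 46 higher and 25 lower, and without kidney 2 they were 49 and 18. The fold changes compare kidney with the mean of the tissues' log levels after TMM scaling, so a miRNA far higher in 1 other tissue can still be counted as higher in kidney, and a fold change need not follow the order of RPTM values. The balance of the calls depended on the scaling: 62 higher and 47 lower with TMM, 73 and 33 with DESeq2's size factors, and 49 and 108 with total valid reads. The median log2 fold change of all tested miRNAs, −0.27 with TMM, moved to −0.06 and −0.84 in turn, and the changes given here are to be read against it. With the 10 other profiles taken as a single group, whose spread then included the differences between tissues, 1 miRNA was higher, none was lower, and 22 had an unadjusted p under 0.05.

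Taken tissue by tissue, the number of calls was lowest against lung and highest against occipital lobe. The counts are not a ranking of likeness, since tissues with 1 profile give larger standard errors than those with 2. With the p-values adjusted over all 7 contrasts, the called share in either direction was 21.8% against lung, 25.1% against large intestine, 27.5% against liver, 29.6% against small intestine, 36.7% against muscle, 49.3% against spinal cord and 58.5% against occipital lobe. More miRNAs were lower than higher in kidney against 5 of the tissues, with 84 higher and 133 lower against occipital lobe, 68 and 115 against spinal cord, 41 and 69 against small intestine, 64 and 72 against muscle and 43 and 50 against large intestine. Against liver the counts were 55 higher and 47 lower, and against lung 48 and 33. The Spearman correlation across miRNAs with the kidney mean was highest for large intestine 2, at 0.909, and lowest for occipital lobe, at 0.659. These contrasts share the 2 kidney profiles, and the lone profiles were assumed to vary like the tissues with 2.

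**Figure D2:**
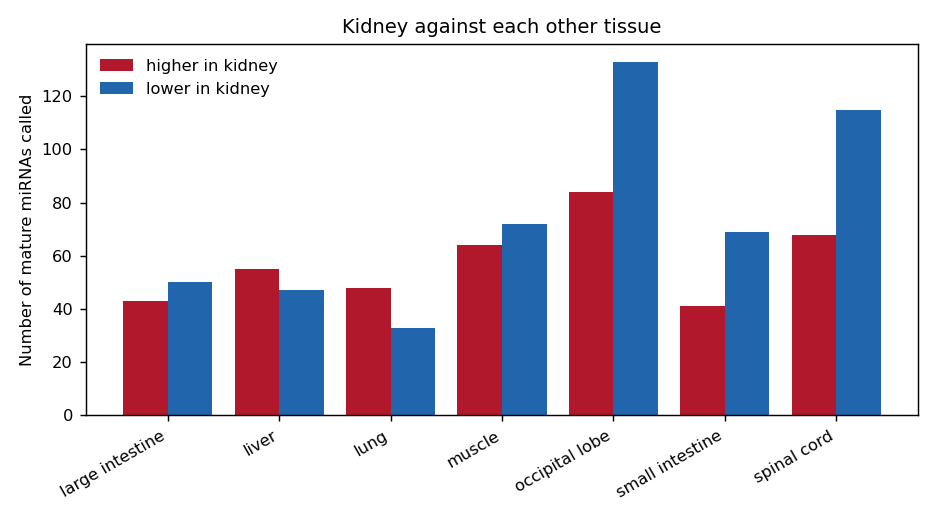
Bars give the number of mature miRNAs (y axis, of 371 tested) called higher (red) or lower (blue) in the 2 kidney profiles than in each of the 7 other tissues (x axis). The occipital lobe bars are the tallest, with 84 higher and 133 lower.

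Higher than every one of the 7 tissues in these contrasts were 6 miRNAs, 1.62% of those tested: mml-miR-10b-5p, mml-miR-10b-3p, mml-miR-30c-2-3p, mml-miR-363-3p, mml-miR-508-3p and mml-miR-599-5p. None was lower than every tissue. With total valid reads in place of TMM, mml-miR-10b-5p and mml-miR-599-5p were the 2 that stayed higher than every tissue. Without kidney 1 the count was 3, with mml-miR-30c-2-3p, mml-miR-508-3p and mml-miR-599-5p, and mml-miR-10b-5p was then not called against every tissue, nor was it without either muscle profile. Counted by RPTM alone, 12 miRNAs (3.23%) had both kidney profiles above all 10 others and 14 (3.77%) had both below, while values scaled by TMM gave 23 and 9.

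The HOX clusters hold the miRNA genes of the miR-10 and miR-196 families between the homeobox genes that pattern the trunk along its axis. All 6 tested members were higher in kidney, at a median log2 fold change of 5.27 beside −0.27 over all miRNAs, where 16.7% were called higher, and 2 more members were too rare to be tested. The level of mml-miR-10b-5p was 3705808 and 2821416 RPTM in kidney, 1744757 and 1408966 in muscle, 466092 and 773620 in large intestine, 379494 in spinal cord, 136781 and 236448 in small intestine, 34558 in lung, 22211 in liver and 8946 in occipital lobe. The kidney profiles did not overlap with any other. By edgeR's quasi-likelihood test, with Benjamini-Hochberg adjustment, its log2 fold change against the mean of the tissues was 5.23 ± 0.29 (SE; adjusted p = 7.8e-08). Against the next tissue, muscle, it was 1.39 ± 0.43 (adjusted p = 0.024), and against occipital lobe 9.60 ± 0.85 (adjusted p = 5.9e-06).

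The other arm of the same hairpin, mml-miR-10b-3p, was about as selective at a far lower level. It stood at 108 and 58.3 RPTM in kidney, 35.0 and 29.2 in muscle, 14.6 in spinal cord, 4.97 and 12.3 in large intestine, 3.68 and 4.22 in small intestine, 1.75 in lung and 0 in liver and occipital lobe. Its log2 fold change was 5.86 ± 0.47 (edgeR adjusted p = 1.5e-06), a value that depends on the prior count where a tissue is at 0. mml-miR-10a-5p, which overlaps HOXB3 and differs from mml-miR-10b-5p by the single base shown above, did not separate kidney in this way. It was at 480356 and 310602 RPTM in kidney, 474119 in lung, 371149 and 323965 in large intestine and 1146 in occipital lobe, so that the kidney profiles overlapped with those of lung and large intestine. Its log2 fold change of 2.66 ± 0.25 (edgeR adjusted p = 4.9e-06) came with higher calls against 4 of the 7 tissues.

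The miR-196 pair was abundant in kidney, muscle and large intestine. mml-miR-196a-5p stood at 2213 and 1622 RPTM in kidney, 2584 and 1758 in muscle, 549 and 326 in large intestine, 21.3 and 654 in small intestine, and at most 6.56 in lung, liver, spinal cord and occipital lobe. mml-miR-196b-5p was at 728 and 687 RPTM in kidney, 968 and 609 in muscle, 1265 and 1117 in large intestine, 2.46 and 53.6 in small intestine, and at most 17.1 in the 4 remaining tissues. The log2 fold changes were 6.60 ± 0.67 and 5.31 ± 0.55 (edgeR adjusted p = 8.9e-06 and 9.4e-06). Neither separated kidney from muscle, where the levels overlapped. The rare arm mml-miR-196a-2-3p, at 16.8 and 9.09 RPTM in kidney and 17.9 and 11.3 in muscle, reached no more than 0.409 RPTM elsewhere.

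The largest fold change was that of mml-miR-599-5p, whose gene lies inside a protein-coding gene. mml-mir-599 and mml-mir-875 overlap VPS13B, which encodes a lipid transfer protein of the Golgi, and mml-mir-489 and mml-mir-653 overlap CALCR, which encodes the calcitonin receptor. mml-miR-599-5p was at 161 and 169 RPTM in kidney, 6.26 and 1.74 in muscle, 2.61 in occipital lobe, 0.837 in spinal cord, 0 and 0.422 in small intestine, and 0 in both large intestine profiles, liver and lung. Every profile outside kidney was thus below 10 RPTM. Its log2 fold change of 9.60 ± 0.56 (edgeR adjusted p = 2.6e-07) is no bound, since 5 profiles held no read and the fitted value there depends on the prior count. A count of 0 allows up to 3 reads, or 1.36 RPTM at the lowest depth. mml-miR-599-5p would not have passed the abundance filter without the kidney profiles.

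mml-miR-489-3p was lower and more widespread. It stood at 86.8 and 64.9 RPTM in kidney, 35.1 in spinal cord, 22.9 and 23.5 in muscle, 10.64 and 0 in small intestine, 3.04 in occipital lobe, 0.807 in liver and 0 in lung and both large intestine profiles. The log2 fold change was 6.09 ± 0.76 against the mean of the tissues (edgeR adjusted p = 7.5e-05), but 2.05 ± 0.93 against muscle (adjusted p = 0.11) and 2.67 ± 1.25 against spinal cord (adjusted p = 0.12), where it was not called. The neighbors of both miRNAs were below the filter and were highest in kidney by RPTM. mml-miR-653-5p was at 12.9 and 4.55 RPTM in kidney and at most 0.871 elsewhere, and mml-miR-875-5p at 4.69 and 4.55 RPTM in kidney and 0 in all 10 other profiles. Of the 8 mature miRNAs of these 4 hairpins, 2 were tested and 7 had a read in some profile.

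**Figure D3:**
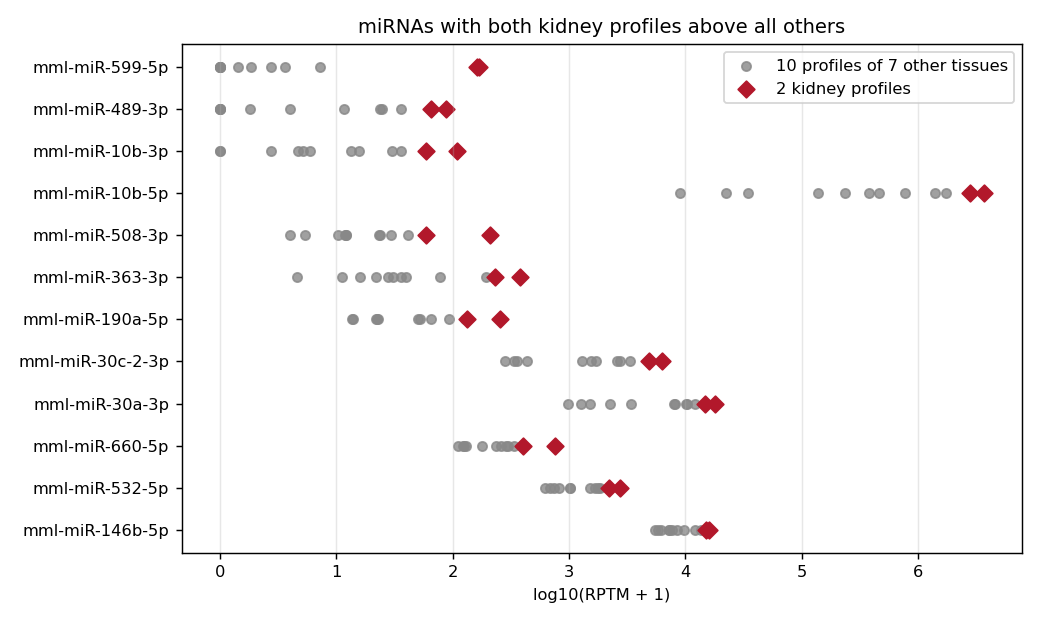
Each row is 1 of the 12 miRNAs with both kidney profiles above all others, and the x axis is log10(RPTM + 1); red diamonds are the 2 kidney profiles and gray circles the 10 profiles of 7 other tissues. The gap is widest for mml-miR-599-5p, at 161 and 169 RPTM against at most 6.26 RPTM, and narrow for mml-miR-146b-5p.

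Epithelial miRNAs were higher in kidney than the mean of the tissues but mostly not higher than in gut. Of the 15 tested miRNAs of the list for kidney epithelium, 12 were higher, none was lower and 3 were not called, beside 16.7% higher and 12.7% lower of all tested miRNAs. The median was 2.47 beside −0.27. With total valid reads 12 of the list were higher and 2 lower. With occipital lobe and spinal cord taken as 1 group, 10 were higher and 1 lower. mml-miR-204-5p, from an intron of the channel gene TRPM3, was at 29724 and 19045 RPTM in kidney, 19591 in occipital lobe, 15956 in spinal cord and between 144 and 1114 in the 8 remaining profiles. Kidney thus shared a high level with the neural tissues and lay far above the rest. The log2 fold change was 4.31 ± 0.39 (edgeR adjusted p = 4e-06). mml-miR-211-5p, which carries the same seed, stood at 305 and 105.8 RPTM in kidney, 183 in spinal cord, 101 in liver and 29.99 in occipital lobe, with 0.409 to 10.8 in the rest (4.49 ± 0.40, edgeR adjusted p = 3.3e-06).

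The miR-200 family keeps epithelial cells in their state by repressing the transcription factors ZEB1 and ZEB2. Its members come from the cluster of mml-mir-200a and mml-mir-429 and the cluster of mml-mir-200c and mml-mir-141. In kidney mml-miR-429-3p was at 1508 and 954 RPTM, in large intestine at 3185 and 1150, in small intestine at 2479 and 1495, in lung at 839, in liver at 168 and in muscle and the neural tissues at 1.25 to 26.7. mml-miR-200a-3p was at 690.02 and 413 RPTM in kidney with 1.25 to 794 elsewhere, and mml-miR-141-3p at 2307 and 869 with 8.78 to 9354 elsewhere. The kidney values of each overlapped with those of the 4 gut profiles or lay below them, and none was above all of gut. All 6 tested miRNAs of both clusters were called higher, beside 16.7% of all tested miRNAs. Their log2 fold changes ran from 2.27 ± 0.49 for mml-miR-141-5p to 4.42 ± 0.33 for mml-miR-429-3p.

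mml-miR-192-5p and mml-miR-194-5p, which are transcribed together and are known from liver, gut and proximal tubule, were higher in small intestine and liver than in kidney. mml-miR-192-5p was at 253994 and 277153 RPTM in kidney, 1873843 and 1445511 in small intestine, 1203647 in liver, 978784 and 443632 in large intestine, 28864 in occipital lobe and 4096 to 8140 in lung, muscle and spinal cord. Kidney was higher than 4 tissues and lower than 3, namely by edgeR's contrasts against single tissues, and the mean contrast was 2.47 ± 0.28 (adjusted p = 2e-05). For mml-miR-194-5p the kidney profiles held 1461 and 1210 RPTM against 33.7 to 23053 elsewhere (1.88 ± 0.27, edgeR adjusted p = 0.00014), again higher than 4 tissues and lower than 3. With the 10 other profiles as a single group the values turned to −1.29 and −2.17, and that of mml-miR-141-3p to −1.01. mml-miR-215-5p, with the seed of mml-miR-192-5p, was at 236 and 707 RPTM in kidney and at 166876 and 183652 RPTM in small intestine, and was not called (−0.59 ± 0.46, edgeR adjusted p = 0.39). mml-miR-205-5p, a miRNA of stratified epithelium, was called (edgeR adjusted p = 0.010) although the kidney profiles stood at 29.3 and 0.413 RPTM and lung at 58.6 RPTM.

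**Figure D4:**
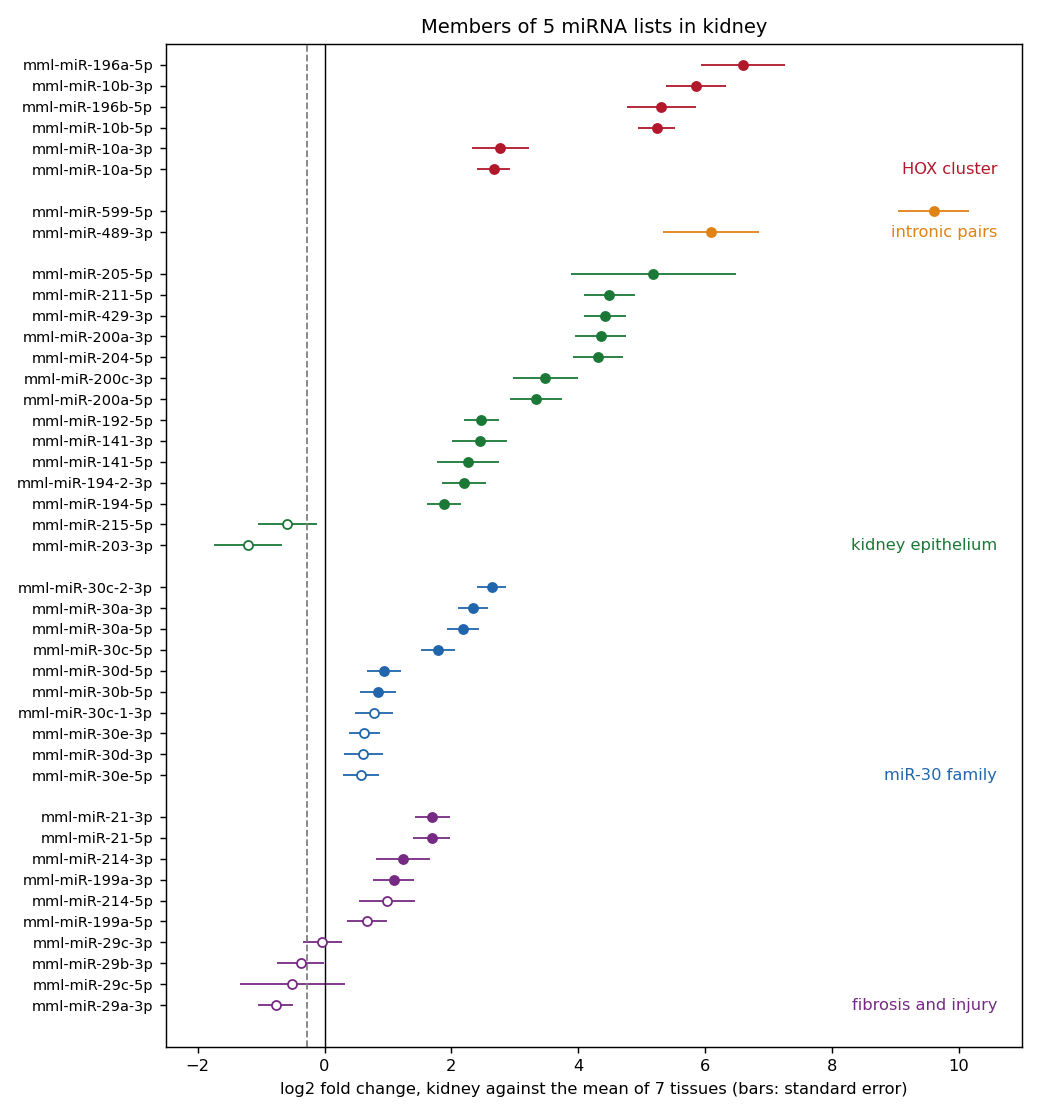
Points give the log2 fold change of kidney against the mean of 7 tissues (x axis) with its standard error for the tested members of 5 lists (rows); filled points have an adjusted p under 0.05, and the dashed line is the median of all tested miRNAs, −0.27. All 6 HOX points are filled, and of the miR-30 points 6 of 10; mml-miR-215-3p, at 0 in both kidney profiles, is not drawn.

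The miR-30 family, which is described as needed by podocytes, was higher in part. Of its 10 tested members 6 were higher and none lower, beside 16.7% and 12.7% of all tested miRNAs, at a median of 0.89. The count depended on the scaling, with 10 higher using DESeq2's size factors and 4 higher using total valid reads. mml-miR-30a-5p was at 339220 and 237134 RPTM in kidney, 317574 in lung, 140657 to 153128 in muscle and the neural tissues, 67490 in liver and 20489 to 34598 in the intestines. The log2 fold change was 2.18 ± 0.25 (edgeR adjusted p = 2e-05), higher than 6 of the 7 tissues. mml-miR-30e-5p, which differs from it by 1 base, was at 7240 and 4558 RPTM in kidney and 2128 to 8675 elsewhere and was not called (0.57 ± 0.28, edgeR adjusted p = 0.14).

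Of the 5 tested 3p arms of the family 2 were higher, and both lay above every other profile, while mml-miR-30c-1-3p, mml-miR-30d-3p and mml-miR-30e-3p were not called and lay within the range of the others. Of the 5 tested 5p arms 4 were higher, none of them above every other profile. Over all tested miRNAs 16.7% were higher, and 3.23% had both kidney profiles above all others. mml-miR-30c-2-3p was at 6351 and 4907 RPTM in kidney, 3314 in lung, 2740 in occipital lobe, 2578 in spinal cord, 1561 in liver, 1287 and 1702 in muscle and 282 to 436 in the intestines. Both kidney profiles were above all others, and its log2 fold changes against single tissues ran from 1.67 ± 0.46 in lung (edgeR adjusted p = 0.013) to 3.78 ± 0.39 in large intestine (adjusted p = 1.7e-05). mml-miR-30a-3p was at 17933 and 14902 RPTM in kidney with 986 to 12038 elsewhere, and at 2.34 ± 0.24 it was called against every tissue but muscle (0.91 ± 0.35, edgeR adjusted p = 0.062). mml-miR-30c-5p, which both mml-mir-30c-1 and mml-mir-30c-2 can yield, was at 3017 and 1760 RPTM against 261 to 2295 elsewhere (1.79 ± 0.27, edgeR adjusted p = 0.00026). mml-miR-30d-5p was at 24931 and 19241 RPTM, within the range of 4230 to 39187 elsewhere, and at 0.94 ± 0.26 it was no longer called with total valid reads, where the value was 0.41.

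The remaining miRNAs above all other profiles came from several genes. mml-miR-363-3p, of the miR-92 seed family, was at 379 and 232 RPTM in kidney, 194 in spinal cord and 3.63 to 76.9 in the rest (log2 fold change 3.88 ± 0.30, edgeR adjusted p = 1.3e-06). mml-miR-508-3p, from a cluster on the X chromosome known for its expression in testis, was at 57.9 and 210.4 RPTM in kidney with 3.04 to 40.2 elsewhere (4.23 ± 0.45, edgeR adjusted p = 1.1e-05). mml-miR-190a-5p, from an intron of TLN2, was at 256 and 132 RPTM in kidney and 128 in spinal cord, and at 2.89 ± 0.35 (edgeR adjusted p = 3.2e-05) it was called against each tissue but large intestine. The kidney profiles of mml-miR-508-3p differed from each other more than its lower kidney profile did from lung.

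mml-miR-660-5p and mml-miR-532-5p overlap CLCN5, the gene of the chloride-proton exchanger of proximal tubule endosomes, on the X chromosome. mml-miR-660-5p was at 765 and 403 RPTM in kidney with 110 to 334 elsewhere (1.96 ± 0.25, edgeR adjusted p = 6.9e-05), and mml-miR-532-5p at 2737 and 2187 RPTM with 621 to 1845 elsewhere (1.63 ± 0.23, edgeR adjusted p = 0.00014). Neither was called against liver. Of the 6 tested miRNAs of this cluster 4 were higher in kidney, beside 16.7% of all tested miRNAs. Besides mml-miR-660-5p and mml-miR-532-5p these were mml-miR-500a-3p and mml-miR-502-3p. mml-miR-146b-5p, a miRNA of innate immune signaling, was at 14988 and 16094 RPTM in kidney and 5521 to 13676 elsewhere (1.47 ± 0.28, edgeR adjusted p = 0.0013) and was called against 4 of the 7 tissues.

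Neighboring pre-miRNAs, taken as those within 10000 bases of each other in the RefSeq annotation of the macaque genome, were called together in some clusters and not in others. Of 42 clusters of at least 2 pre-miRNAs, 6 had all tested members higher and 1 had all lower, 16 had some called, and 19 had none. The largest, of 26 pre-miRNAs, had 6 of 34 tested miRNAs lower and none higher. Over all tested miRNAs 12.7% were lower, a share near that of this cluster, and 16.7% were higher. This description was made after the values were seen, and miRNAs of one transcript are not independent. Of the 310 tested pre-miRNAs, 277 were matched by name. The 4 tested miRNAs of the cluster of mml-mir-450b, mml-mir-542 and mml-mir-424 were all higher, with mml-miR-424-5p at 95.4 and 55.8 RPTM against 1.74 to 93.2 elsewhere. The 3 of mml-mir-221 and mml-mir-222 and the 2 of mml-mir-224 and mml-mir-452, which overlap GABRE, were higher too, and mml-miR-182-5p and mml-miR-183-5p were higher while their neighbor mml-miR-96-5p was not called (1.31 ± 0.58, edgeR adjusted p = 0.11). Of 83 pre-miRNAs with both arms tested, 10 had both arms higher, 4 both lower and 52 neither. A single arm was higher in 3 (5p) and 2 (3p) of them and lower in 7 (5p) and 5 (3p). None had its arms called in opposite directions.

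miRNAs linked with fibrosis, hypoxia and proliferation showed smaller differences. Of the 10 tested members of the fibrosis and injury list 4 were higher and none lower, beside 16.7% and 12.7% of all tested miRNAs, at a median of 0.83. mml-miR-21-5p, which is known to increase in injured kidney, was at 60200 and 100087 RPTM in kidney and 5711 to 116308 elsewhere (1.69 ± 0.29, edgeR adjusted p = 0.00061), with the lowest values in occipital lobe and spinal cord. The kidney profiles overlapped with those of large intestine, liver, muscle and small intestine, and 3 of the 7 tissues were called. mml-miR-199a-3p and mml-miR-214-3p, miRNAs of fibroblasts, were at 6002 and 3896 RPTM and at 49.6 and 28.5 RPTM in kidney and were called (1.09 ± 0.33 and 1.23 ± 0.43, edgeR adjusted p = 0.023 and 0.046). Both calls were lost with total valid reads, and the value of mml-miR-199a-3p turned to −0.18 with the 10 other profiles as a single group. mml-miR-29a-3p, which represses collagen messenger RNAs, was at 882 and 548 RPTM in kidney with 668 to 3537 elsewhere and was not called (−0.77 ± 0.28, edgeR adjusted p = 0.054).

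The hypoxia-induced mml-miR-210-3p was at 25.02 and 17.4 RPTM in kidney, within a range of 12.5 to 160 elsewhere (−0.92 ± 0.45, edgeR adjusted p = 0.14). None of the 11 tested miRNAs of the proliferation clusters around mml-mir-17 and mml-mir-106b was called, at a median of −0.31 that lay close to that of all miRNAs. Among them mml-miR-25-3p, at 3173 and 3162 RPTM against 4887 to 12147, and mml-miR-106b-3p, at 172 and 177 RPTM against 242 to 657, had both kidney profiles below all others. mml-miR-19b-3p, at 1574 and 1236 RPTM, lay within the range of the other profiles.

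Of the 14 miRNAs with both kidney profiles below all others, 6 were called lower. mml-miR-490-3p, whose gene overlaps the muscarinic receptor gene CHRM2, had no read in either kidney profile and was at 61.5 RPTM in spinal cord, 35.4 in lung, 19.6 and 23.6 in small intestine, 9.95 and 17.9 in large intestine, 10.5 in liver, 9.13 in occipital lobe and 0.834 and 1.31 in muscle. A kidney count of 0 allows up to 3 reads, each worth 0.391 RPTM in kidney 1 and 0.413 RPTM in kidney 2. That floor covers the muscle value of 0.834 and lies just below that of 1.31, so a difference from muscle was not resolved. mml-miR-181c-3p was at 45.7 and 19.01 RPTM in kidney with 46.0 in liver, 78.6 to 212 in the other non-neural profiles, 3110 in occipital lobe and 2420 in spinal cord (−2.52 ± 0.38, edgeR adjusted p = 0.00025). mml-miR-197-3p was at 71.5 and 122 RPTM in kidney and 124 to 4645 elsewhere (−2.30 ± 0.41, edgeR adjusted p = 0.00071).

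mml-miR-150-5p, a miRNA of mature lymphocytes, was at 161 and 128 RPTM in kidney, 238 in liver, 348 in occipital lobe and 610 to 6881 in the others, with the highest value in lung. Its log2 fold change was −2.11 ± 0.34 (edgeR adjusted p = 0.00037), and it was lower than in 4 of the 7 tissues. Of the 7 tested immune markers it was the 1 that was called, a share near the 12.7% called lower over all tested miRNAs. The neighbors mml-miR-195-5p and mml-miR-497-5p were at 184 and 161 RPTM and at 94.2 and 71.1 RPTM in kidney, below all others (−1.03 ± 0.34 and −1.09 ± 0.36, edgeR adjusted p = 0.037 and 0.036). Both calls were lost when either kidney profile was left out and under several other settings.

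Also lower, but not below every profile, were mml-miR-383-5p and mml-miR-1306-5p. mml-miR-383-5p was at 1.17 and 0 RPTM in kidney, 0.436 to 15.7 in 8 profiles, 535 in occipital lobe and 1418 in spinal cord (−4.78 ± 0.94, edgeR adjusted p = 0.0015). mml-miR-1306-5p was at 0.391 and 0 RPTM in kidney and 0 to 21.9 elsewhere (−3.83 ± 1.22, edgeR adjusted p = 0.031), and the call was lost when either kidney profile was left out. mml-miR-375-3p, a miRNA of endocrine cells and gut, was chosen after its values were seen: it was at 807 and 1076 RPTM in kidney, between 575 and 108890 elsewhere, and lower in kidney (−2.93 ± 0.44, edgeR adjusted p = 0.00023). Of the 12 tested neural markers 8 were lower, beside 12.7% of all tested miRNAs, while mml-miR-138-5p was higher at 164 and 117 RPTM (1.79 ± 0.32, edgeR adjusted p = 0.00067), with 973 in occipital lobe, 1933 in spinal cord and 362 in lung.

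The most abundant kidney reads often ended elsewhere than the listed mature miRNA, and some began elsewhere, which changes the seed. Of 201 miRNAs with at least 50 reads in both kidney profiles, 198 had the same most frequent first base in both. It was the listed one for 179 and another one for 19, of which 13 began 1 nt earlier, 3 began 1 nt later and 3 began 2 nt away. The same first base led in every other profile with at least 50 reads for 191 of the 198 and differed in some other profile for 6. mml-miR-599-5p had 50 reads in no other profile. The most frequent reads of the miR-200 family and of mml-miR-30e-3p and mml-miR-30a-3p are shown, with the bases at positions 2 to 8 of the read in capitals, because the shift brings seeds together.
mml-miR-200a-3p: uAACACUGucugguaacgaug
mml-miR-141-3p: uAACACUGucugguaaagaug
mml-miR-429-3p: uAAUACUGucugguaaaaccg
mml-miR-200c-3p: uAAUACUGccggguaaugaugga
mml-miR-30a-3p: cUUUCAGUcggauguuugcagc
mml-miR-30e-3p: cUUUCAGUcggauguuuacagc
The listed mml-miR-141-3p has the seed ACACUGU and the listed mml-miR-200c-3p the seed AUACUGC, 1 base later than in the reads. The first base lay 1 nt before the listed one in 99.6% of the kidney 1 reads of mml-miR-141-3p, 100% of those of mml-miR-200c-3p and 98.0% of those of mml-miR-30e-3p. In the other profiles with at least 50 reads the shares were at least 99.1%, 98.7% and 96.2%, so the shift was seen in these too.

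**Figure D5:**
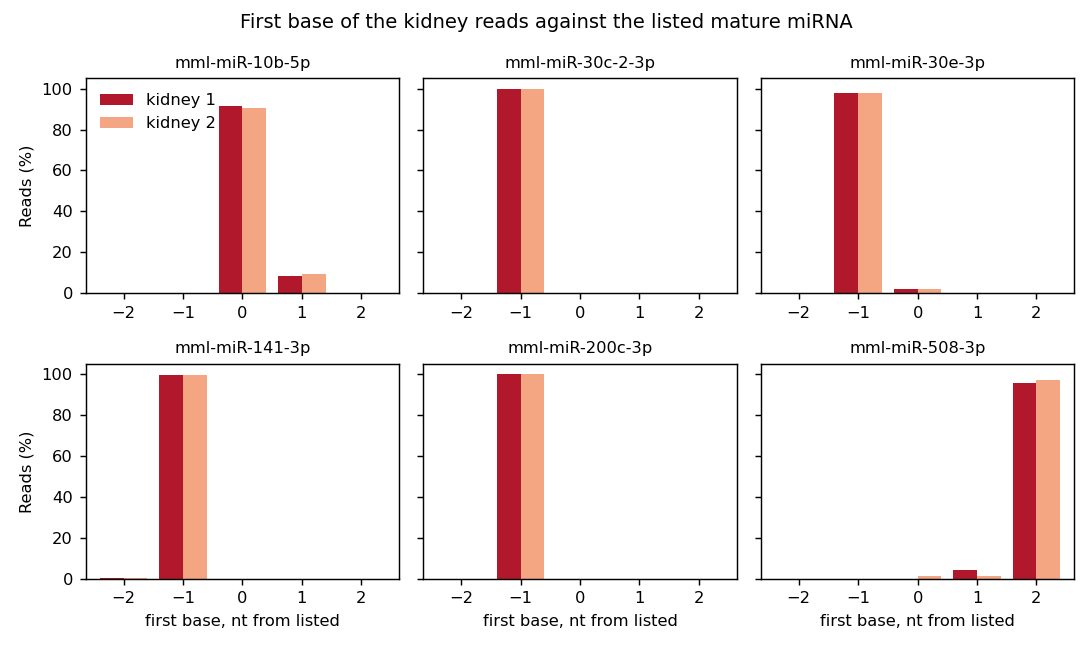
Bars give the percentage of reads (y axis) that begin at each position relative to the listed first base (x axis, nt) in kidney 1 and kidney 2 for 6 miRNAs. Reads of mml-miR-10b-5p begin at 0, those of mml-miR-30c-2-3p, mml-miR-30e-3p, mml-miR-141-3p and mml-miR-200c-3p at −1, and those of mml-miR-508-3p at 2.

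For mml-miR-10b-5p the listed first base led with 91.4% and 90.7% of the kidney reads, and the most frequent read was 22 nt long, 1 nt shorter than listed, with 74.5% and 69.4% of the reads. Reads of mml-miR-508-3p began 2 nt after the listed base in 95.9% and 97.1%, which gives the most frequent read the seed UUGUCGC. The most frequent read of mml-miR-30c-2-3p began 1 nt before it and had the seed UGGGAGA. Neither shift differed in direction between kidney and the other profiles that had 50 reads.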

How the data were processed

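The deposited files give, per profile, each distinct read sequence with its count after the authors had removed adapters (TruSeq small RNA libraries, Illumina), kept reads with quality scores of 30 or more in the first 25 nucleotides and collapsed identical reads; counts were not normalized. Here reads of at least 18 nt were matched exactly to 832 pre-miRNAs of the study's list, which is not complete here, and assigned to a mature miRNA when both ends lay within 2 nt of it. A read that fitted several mature sequences was counted for each, so near-identical miRNAs are uncertain. Tested were miRNAs whose mean over the 12 profiles reached 5 RPTM, with an SD of 1 or more, with edgeR 4.0.16 in R 4.3.3 (quasi-likelihood test, TMM factors of 0.784 and 0.707 in kidney within 0.555 to 2.35, 8 tissue groups, 4 residual degrees of freedom, Benjamini-Hochberg adjusted p under 0.05). The SE was the log2 fold change divided by the square root of F. DESeq2 1.42.0 was an alternative, and summaries used Python 3.11.15, pandas 2.3.3 and SciPy 1.17.1. On simulated counts for this contrast 73 of 74 miRNAs changed 8-fold were recovered among 371, with 1 false call. In that simulation the other tissues did not differ from each other and every change was 8-fold. It therefore does not cover smaller changes or the differences between the real tissues.

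The miRNAs named were the arms of the 3 markers, the 12 largest increases above all other profiles, the 8 largest decreases (below all others first), the 10 most abundant in kidney and up to 4 from each list by kidney abundance. Members, lists and tests were chosen with earlier results of these data known. Host genes and neighbors came from RefSeq by name. The profile numbers of the labels were not taken to pair animals: deviations of same-numbered profiles correlated at −0.223, 0.039 and −0.020 between kidney and the 3 other tissues with 2 profiles. The floors cover counting error only, while the SE also includes the spread between profiles of a tissue.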

Additional observations from a re-analysis of the deposited data

How the results depend on the processing

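Of 45 named and tested miRNAs, 32 were called. With the 10 other profiles as 1 group 31 of these calls were lost, that of mml-miR-599-5p being kept, and the counts fell from 62 higher and 47 lower to 1 and 0 (22 miRNAs at an unadjusted p under 0.05). mml-miR-599-5p passed the abundance filter only through the kidney profiles, so its kept call is no independent support. Higher counts moved to 39 with a filter at 50 RPTM and 41 with identical reads only. Lower counts moved to 108 with total valid reads, 22 with identical reads, 17 with 1 neural group and 30 without mml-miR-10b-5p. Leaving out each profile gave 46 to 68 higher and 18 to 60 lower, with 25 lower without kidney 1 and 18 without kidney 2. Higher than every tissue were 2 with total valid reads, 3 at 50 RPTM and 3 to 8 without a profile; lower than every tissue were 0 to 3, the 3 (mml-miR-181c-3p, mml-miR-181c-5p, mml-miR-197-3p) without liver. Above all profiles were 23 with TMM scaling and 7 with identical reads, and below all 9 and 9.

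The replicate block on the 8 numbered profiles gave 78 higher and 31 lower of 304, against 81 and 37 without the block. With it the values of mml-miR-486-5p and mml-miR-199a-3p were 0.79 and −0.23 (0.86 and −0.25 without the block). The numbers do not show a pairing.

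Without mml-miR-10b-5p the difference in the share of the top miRNA turned from 16.8 to −18.6 percentage points (exact permutation p = 0.0606). Leaving out each profile gave 14.9 to 19.4 points (19.4, exact permutation p = 0.0364, without large intestine 2), 8.17 to 10.7 points for reads of 21 to 23 nt, −8.43 to 4.35 for tails and −0.091 to 0.053 for the arm ratio, the last 2 turning without kidney 1.

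Values that changed direction were, with total valid reads, −0.072 for mml-let-7f-5p, −0.17 for mml-let-7a-5p, −0.29 for mml-miR-27b-3p and −0.27 for mml-miR-19b-3p. With the 10 other profiles as 1 group they were −1.29 for mml-miR-192-5p, −1.01 for mml-miR-141-3p, −2.17 for mml-miR-194-5p, −0.18 for mml-miR-199a-3p and −0.093 for mml-miR-19b-3p, which ranged from −0.046 (without occipital lobe) to 0.49 when a profile was left out. mml-miR-486-5p, at −0.07, turned to 0.13 with DESeq2's size factors and in its Wald test, 0.077 with no filter, 0.014 with identical reads, and 0.12 without mml-miR-10b-5p, and lay between −0.55 and 0.34 when a profile was left out, above 0 without kidney 1, lung, muscle 2 or occipital lobe. The causes were not tested. The 4 tissues with a lone profile limit the contrasts with them.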

Other observations

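The 2 kidney profiles differed by more than 2-fold in 33 of 371 tested miRNAs, 10 of them higher in kidney 1 and 23 higher in kidney 2. Of the 33, 17 reached 50 RPTM, 9 were called higher and 1 lower in kidney, where 16.7% of all tested miRNAs were higher and 12.7% lower. The miRNAs named here were chosen after their values were seen. mml-miR-378a-5p, which overlaps the metabolic coactivator gene PPARGC1B in mammals, was at 808 RPTM in kidney 1 and 3376 RPTM in kidney 2. mml-miR-182-5p, a miRNA of sensory epithelium, was at 28412 and 64982 RPTM, while mml-miR-212-3p, from the CREB-responsive miR-212/132 transcript, was higher in kidney 1 at 118 RPTM against 21.1 RPTM. mml-miR-450b-5p, at 48.1 and 5.79 RPTM, and mml-miR-508-3p, at 57.9 and 210.4 RPTM, differed in opposite directions. With 1 profile each, these differences have no replicate.

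Reads of mml-miR-215-5p began 1 nt after the listed first base in 69.0% and 85.3% of the kidney cases, in 95.4% in liver and in 0.892% to 13.7% in the intestines. From there on the sequence differs from mml-miR-192-5p by the substitution C20A alone (positions from 1 at the 5′ end of mml-miR-192-5p), so the level of mml-miR-215-5p in kidney is uncertain, and the origin of these reads was not tested. Of the 3′ tails that the precursor did not encode, a single C made up 41.3% and 64.4% in kidney and 31.5% to 64.9% elsewhere. A single A made up 32.5% and 20.9% in kidney and 6.90% to 22.5% elsewhere, and a single U 10.97% and 4.69% in kidney and 8.48% to 39.2% elsewhere.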
